A study of Mus musculus with 6 samples.

Results

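The nuclear-encoded genes of the mitochondrial respiratory chain were taken as the protein-coding genes whose symbols begin with Nduf, Uqcr, Cox4 to Cox8 or Atp5, together with Cyc1 and the 4 Sdh subunit genes. This rule, which uses symbols and no measured value, matched 94 of the 22027 protein-coding genes among the 52636 genes of the table. Of the 94, 84 encode subunits: 36 of complex I, 4 of complex II, 9 of complex III, 20 of complex IV and 15 of complex V. The other 10 are not subunits and were kept apart. They are 8 assembly factors of complex I (Ndufaf genes) and Atp5s and Atp5sl, which carry an Atp5 symbol only. Ndufa4 and Ndufa4l2 were counted with complex IV.

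The genes were measured by bulk RNA-seq of vestibular sensory epithelium, the tissue of the inner ear that holds the hair cells (HCs) for balance. The animals were male 129S1/SvImJ mice, 2 to 4 months old, with 3 Control and 3 exposed to IDPN (3,3'-iminodipropionitrile), a nitrile toxic to HCs. The IDPN animals drank water with 30 mM IDPN for 8 weeks, and the Control animals drank plain water. Each library is 1 animal, from which 2 utricles and 6 cristae were pooled, and was made from 6 to 11 ng of RNA by SMART-seq2 with 8 and 12 cycles of PCR. The libraries come from a single experiment of the study, and the labels used here name no batch. The codes in the Control titles have a stem in common that is missing from the IDPN titles, and whatever that stem stands for cannot be told apart from the exposure. The pooled organs also hold supporting cells, nerve endings, glia and stroma, and in such bulk RNA fewer cells of a type and less RNA per cell cannot be told apart. Total estimated counts per library ran from 40474847 to 43566332.

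The respiratory chain sits in the inner mitochondrial membrane. Complex I passes electrons from NADH and complex II from succinate to ubiquinone, complex III passes them on to cytochrome c, and complex IV to oxygen. The proton gradient built by complexes I, III and IV drives complex V, the ATP synthase. Most subunits are encoded in the nucleus and imported, and only a small core of complexes I, III, IV and V comes from mitochondrial DNA, so that complex II is wholly nuclear. Transport of ions across the vestibular epithelium, and the mechanical and synaptic activity of HCs, are known to demand much ATP.

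The subunit genes were among the well-expressed genes of this tissue. Levels between genes are given as TPM, counts divided by transcript length and scaled to the same total in every library. Summed over all 94 genes the 3 Control libraries had 17706, 19575 and 17166 TPM, and the 3 IDPN libraries 18852, 18294 and 19741 TPM, so the groups overlapped. The most abundant subunit was in complex V. Atp5b, the catalytic beta subunit of the F1 head, had a mean TPM of 1952, and Atp5c1, the gamma subunit of the rotating stalk, 811. In complex IV, Cox4i1 (1382 TPM) and Cox8a (883 TPM) led. In complex III, Uqcrh (408 TPM), the hinge protein, and Uqcrb (286 TPM) led. In complex I the highest means were 311 TPM for Ndufb9 and 282 TPM for Ndufa7, and in complex II 349 TPM for Sdha, the flavoprotein, and 165 TPM for Sdhb, the iron-sulphur subunit. The median level of the subunits was 119 TPM in complex I, 123 in complex II, 200 in complex III and 278 in complex V. It was 248 TPM over the 11 generally expressed subunits of complex IV. These levels depend on which transcript is taken as the gene's length. For 7 genes the longest and shortest principal transcripts differed by more than 1.5 times, the widest being Ndufb2, with 12.2 TPM at 4371 nucleotides and 101 TPM at 455 nucleotides.

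The comparison of IDPN with Control asks whether chronic ototoxic exposure changed the expression of these genes. The DESeq2 Wald test on 3 against 3 libraries gave an adjusted p (Padj) for 91 of the 94. Only 3 passed Padj under 0.05 with a fold change above 1.5, all downregulated: Ndufa1, Atp5h and Atp5e. No member was upregulated, and no member had an unadjusted p under 0.05 in that direction with either DESeq2 or edgeR, against 24 downward with DESeq2 and 21 with edgeR. At that unadjusted cutoff DESeq2 had 1615 of all 17650 tested genes downward and 1372 upward, so the downward members exceeded the share over all genes. This background for unadjusted counts is given for the main DESeq2 fit alone. The 3 called genes are 3.30% of the 91, where 3.42% of all 17650 tested genes were called downregulated and 2.32% upregulated, so the share called is at the background level. With Padj alone the count stayed at 3, beside backgrounds of 3.90% downward and 2.43% upward. The edgeR quasi-likelihood test kept Ndufa1 alone (adjusted p = 0.0240), where 2.19% of all genes were called downregulated. A Padj that misses the threshold does not show that a gene was unchanged. The median standard error of a member's log2-Fold_Change was 0.19, and the 95% interval lay wholly within a 1.5-fold change either way for 28 of the 91.

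Ndufa1 (ENSMUSG00000016427.7; chromosome X, 37187588 to 37191163, GRCm38) encodes a small membrane-bound accessory subunit of complex I needed for its assembly. Control 1 to 3 had 1602, 1813 and 1592 normalized counts of it, and IDPN 1 to 3 had 1030, 1120 and 1104. Every Control library lay well above every IDPN library, and the spread within each group was small. The Control mean was 1669 ± 125 and the IDPN mean 1085 ± 48.0 (SD, n = 3 each). The log2-Fold_Change of IDPN over Control was -0.62 (SE 0.16, DESeq2 Padj = 0.00259). Ndufa1 kept a Padj of at most 0.0359 when any single library was left out. Its fold change came under 1.5 without Control 2 (-0.56) or without IDPN 1 (-0.58).

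Atp5h (chromosome 11, 115415689 to 115419962) encodes subunit d of the peripheral stalk, which holds the head of the ATP synthase still against the turning rotor. It had 8952, 9936 and 6276 normalized counts in Control and 4868, 5712 and 5826 in IDPN. The groups did not overlap, but Control 3 lay much nearer to the IDPN libraries than to the other Controls. The log2-Fold_Change was -0.62 (SE 0.19, DESeq2 Padj = 0.0251). Its Padj reached 0.249 when a library was left out, and its edgeR adjusted p was 0.126.

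Atp5e (chromosome 2, 174461072 to 174464105) encodes the epsilon subunit, the smallest of the F1 part, in the central stalk. Normalized counts were 938, 1162 and 738 in Control and 479, 644 and 653 in IDPN, again without overlap and with Control 3 next to the IDPN range. The log2-Fold_Change was -0.68 (SE 0.22, DESeq2 Padj = 0.0348), the edgeR adjusted p was 0.0959, and the largest Padj with a library left out was 0.304. With total-count scaling the log2-Fold_Changes were -0.37 for Ndufa1, -0.34 for Atp5h and -0.41 for Atp5e, none of them past Padj (0.328 for Ndufa1 and 0.331 for Atp5h in DESeq2). The transcripts of Ndufa1, Atp5h and Atp5e share no exonic bases with another gene.

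**Figure D1:**
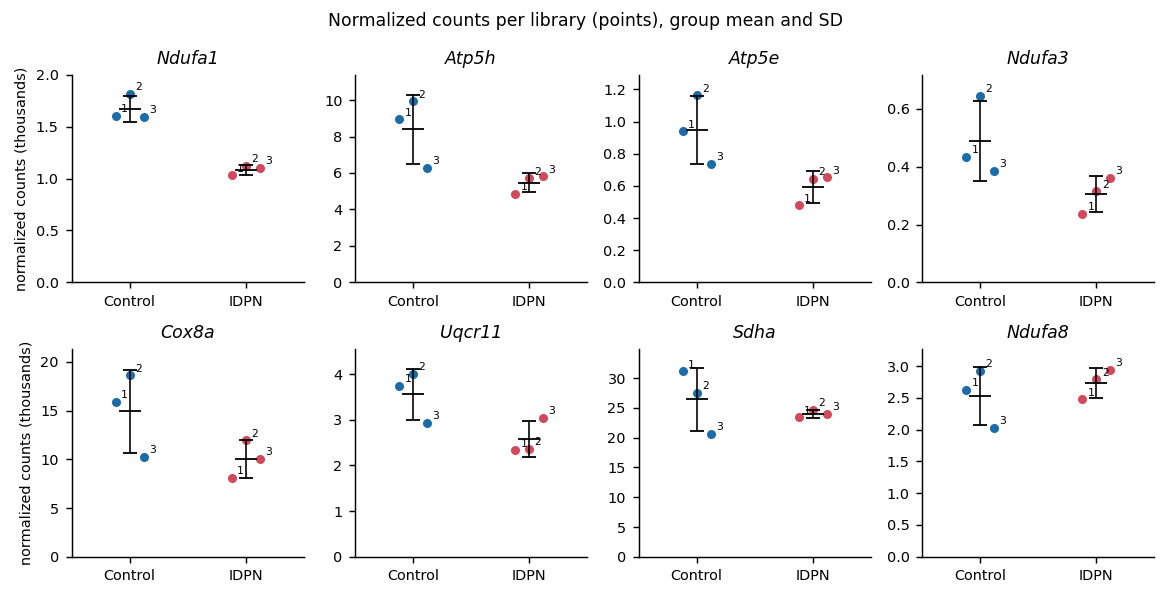
Normalized counts, in units of 1000 (y axis, from 0), of 8 members in each library (points, numbered by replicate), with the group mean and SD (bars, n = 3 per group). Ndufa1, Atp5h, Atp5e and Ndufa3 did not overlap between groups, while in Cox8a, Uqcr11, Sdha and Ndufa8 at least 1 Control library lay within or below the IDPN range.

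Called or not, the members leaned the same way. Of the 91 tested, 82 (90.1%) had a log2-Fold_Change below 0, against 48.4% of all tested genes, and the median was -0.25 against 0.015 over all genes. The lean is relative to the typical gene, which DESeq2's size factors hold near 0. Scaling each library to its total counts moved the median of all genes by 0.25, to 0.27, and that of the members to 0.021, with 40 members below 0 and 51 above. Against the median of all genes, the members therefore stood 0.27 lower with the first scaling and 0.24 lower with the second. With total-count scaling no member was called downregulated (1.28% of all genes were), and at an unadjusted p under 0.05 there were 0 members downward and 1 upward in DESeq2.

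The groups did not overlap, with IDPN lower, for 12 of the 91 members (11.4% of all genes), and with IDPN higher for 0 members (11.1% of all genes). The share, 13.2%, is again near the background. Besides the 3 called genes the 12 were the complex I subunits Ndufa3, Ndufb3 and Ndufs4, the complex V subunits Atp5j and Atp5j2, the assembly factors Ndufaf2, Ndufaf3 and Ndufaf8, and Atp5sl.

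Complex I carried 1 call among 36 subunits, with a median log2-Fold_Change of -0.26 and 35 of 36 below 0 (17 of 36 with total-count scaling, where the median was 0.007). The 7 core subunits, which bind the flavin and the iron-sulphur clusters of the peripheral arm, had values from -0.32 for Ndufs7 to -0.035 for Ndufv1, with a median of -0.10. For 6 of these 7 the 95% interval lay within a 1.5-fold change. The 19 other accessory subunits had a median of -0.30 and reached -0.68 in Ndufa3, and the 10 accessory subunits of the distal membrane arm had a median of -0.26. Ndufa3, a short membrane-spanning subunit, had 433, 644 and 386 normalized counts in Control and 237, 315 and 362 in IDPN, with groups that just failed to overlap (SE 0.25, DESeq2 Padj = 0.0909). The abundant Ndufb9 and Ndufa7 had values of -0.32 (Padj = 0.478) and -0.40 (Padj = 0.286) in DESeq2, with Control 3 inside the IDPN range for both. Ndufa8, a twin-cysteine accessory subunit, was the only complex I gene above 0, at 0.12 (SE 0.18, Padj = 0.833 in DESeq2).

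Complex II stood nearest to no difference by this scaling. Its median log2-Fold_Change was -0.071, and 0 of its 4 genes were called or had an unadjusted p under 0.05 in DESeq2, with 0 called in edgeR. Sdha had 31167, 27525 and 20625 normalized counts in Control and 23405, 24724 and 23989 in IDPN, so the Controls spread on both sides of a tight IDPN group. Its log2-Fold_Change was -0.14 (95% interval -0.48 to 0.21). The other values were -0.19 (95% interval -0.59 to 0.22) for Sdhc and -0.005 (-0.32 to 0.31) for Sdhd, the membrane anchors, and 0.025 (-0.36 to 0.41) for Sdhb. With total-count scaling all 4 were above 0, with a median of 0.20, which is below the 0.27 of all genes. Summed over the 4 genes the TPM was 580, 558 and 551 in Control and 738, 631 and 700 in IDPN, a log2 ratio of 0.29 with no overlap. The sum of their normalized counts gave -0.11, so the direction for complex II rests on the scale.

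Complex III had 0 calls in DESeq2 and edgeR, 1 gene downward at an unadjusted p under 0.05 in DESeq2, and a median of -0.25 (0.028 with total-count scaling). Uqcr11, a small accessory subunit, had the lowest p of its 9 genes, with 3738, 4009 and 2930 normalized counts in Control and 2335, 2370 and 3043 in IDPN (log2-Fold_Change -0.46, SE 0.18, DESeq2 Padj = 0.122). IDPN 3 lay above Control 3. Next came Uqcrq, which sits beside the cytochrome b subunit, at -0.34 (Padj = 0.374 in DESeq2). The abundant Uqcrh and Uqcrb were at -0.26 and -0.052. The electron-carrying subunits were at -0.25 for Uqcrfs1, the Rieske iron-sulphur protein, and -0.038 for Cyc1, cytochrome c1. The core proteins diverged, with Uqcrc2 at -0.26 and Uqcrc1 at 0.087, neither with an unadjusted p under 0.05.

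Complex IV likewise had 0 calls in DESeq2 and edgeR, with 6 genes downward at an unadjusted p under 0.05 in DESeq2 and a median of -0.25 over the 17 genes tested (0.021 with total-count scaling). The 11 generally expressed subunits were all below 0, from -0.57 to -0.22, with a median of -0.28. Scaled by total counts 6 of these 11 were below 0. Cox7c, a small membrane subunit, had 2503, 3025 and 1931 normalized counts in Control and 1409, 1958 and 1726 in IDPN, with Control 3 just under IDPN 2. The lowest p values were those of Cox7c (log2-Fold_Change -0.55, SE 0.20, DESeq2 Padj = 0.0856) and Cox8a (-0.57, SE 0.22, DESeq2 Padj = 0.110). Cox8a had 15900, 18640 and 10252 normalized counts in Control and 8099, 11956 and 10037 in IDPN, so Control 3 lay between IDPN 3 and IDPN 2. Cox4i1, the most abundant, had 32215, 37472 and 22965 against 19598, 24660 and 24141, where Control 3 again lay inside the IDPN range (-0.44, DESeq2 Padj = 0.198). Of the Cox4i1 transcript 20.1% overlaps exons of another gene, and since the counting is not stated to use strand, reads there cannot be assigned with certainty. This limit holds for other members too. Over all complexes, 16 members had an overlap of 10% or more, among them Atp5o (48.6%), Ndufb9 (28.6%) and Atp5j (22.5%).

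Complex V had the lowest median, -0.37, with all 15 genes below 0 and 2 called. With total-count scaling the median was -0.092 and 10 of the 15 were below 0. Of the complexes counted whole, this one alone kept a median under 0 on both scales. The 11 generally expressed subunits of complex IV did so too, with medians of -0.28 and -0.030. The peripheral stalk ranged from -0.62 (Atp5h) to -0.069 (Atp5o), and the 3 small membrane subunits Atp5k, Atp5l and Atp5j2 lay between -0.58 and -0.42. The F1 part, head and central stalk together, ran from -0.68 in Atp5e to -0.18 in Atp5d. Atp5b had 123759, 115092 and 73226 normalized counts in Control and 74858, 98818 and 82624 in IDPN, with Control 3 the lowest of all 6 (log2-Fold_Change -0.28, SE 0.21, DESeq2 Padj = 0.537). The difference between complexes was not tested. The interquartile range was -0.35 to -0.13 in complex I and -0.47 to -0.22 in complex V, so the complexes overlapped widely.

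The 10 genes that are not subunits had 0 calls in DESeq2 and edgeR, 3 downward at an unadjusted p under 0.05 in DESeq2, and a median of -0.092 (0.18 with total-count scaling). Ndufaf2 was lowest at -0.54 (DESeq2 Padj = 0.296) and Ndufaf6 highest of all tested members at 0.42 (Padj = 0.423 in DESeq2).

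**Figure D2:**
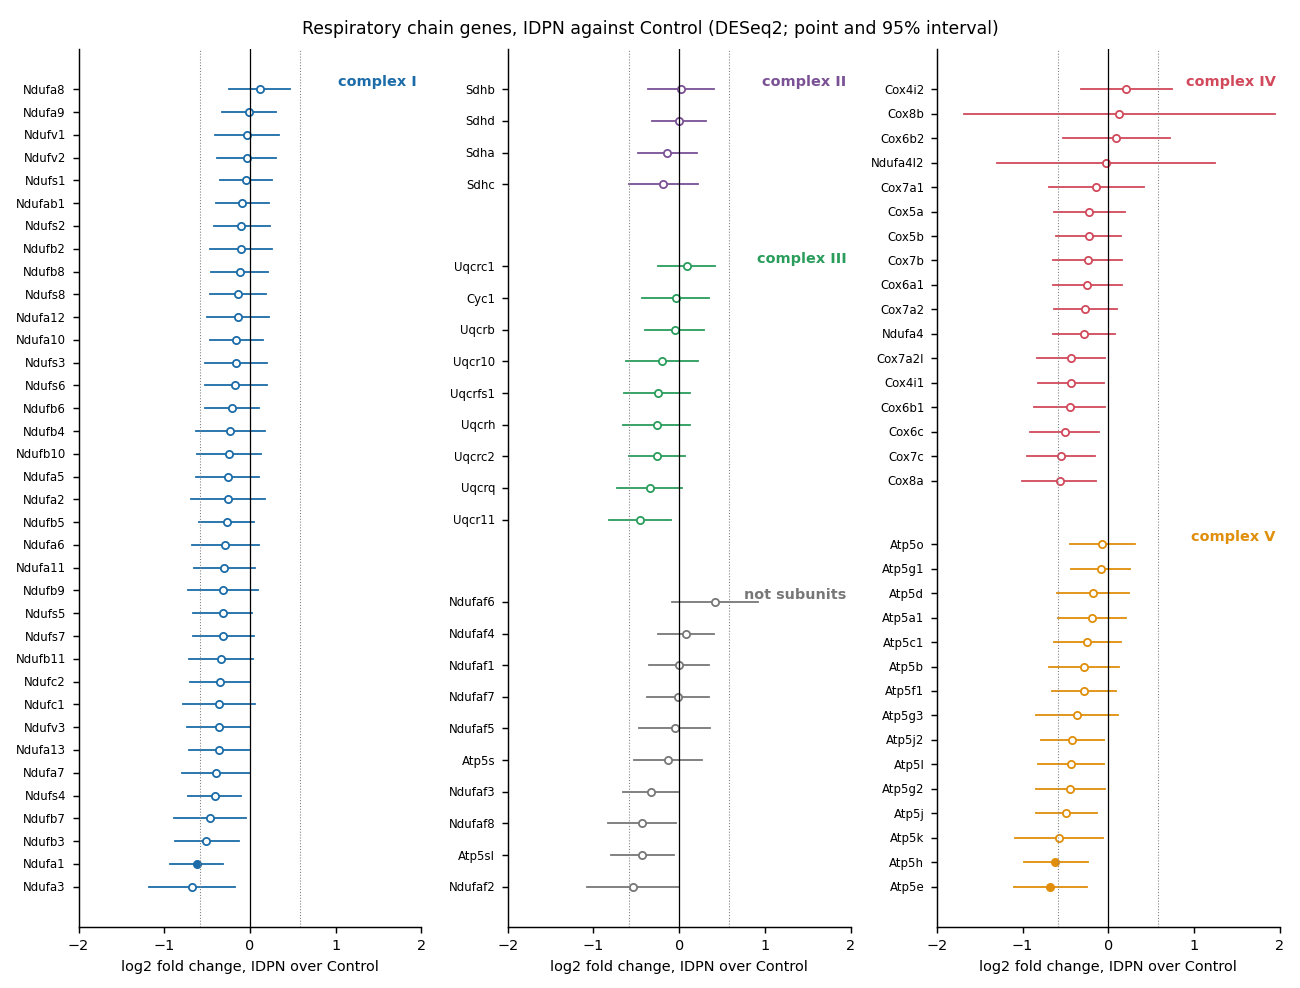
Log2 fold change of IDPN over Control (x axis) for the 91 tested members, grouped by complex, with DESeq2 estimates (points) and 95% intervals (lines). Filled points passed Padj under 0.05 (3 genes), dotted lines mark a 1.5-fold change, and 82 of 91 points lie left of 0, where total-count scaling leaves 40.

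The libraries divided in the same way for nearly every member. Control 3 was the lowest Control for 80 of the 91 genes, lay within the range of the IDPN libraries for 53 and below it for 26. IDPN 1 was the lowest IDPN library for 81, and Control 2 the highest of all 6 libraries for 66. Taken as log2 deviations from each gene's mean, the members had medians of 0.20, 0.35 and -0.18 for Control 1 to 3, and of -0.30, -0.026 and -0.036 for IDPN 1 to 3. With total-count scaling the same medians were -0.089, 0.13 and -0.059 in Control and -0.008, -0.084 and 0.12 in IDPN, without any separation of the groups. With DESeq2 size factors all 5 complexes had Control 1 and 2 as their highest libraries and Control 3 and IDPN 1 as their lowest. The spread within Control was therefore as wide as the difference between groups.

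Control 3 decided how many members were called. Left out, 16 of 90 tested members passed both thresholds, where 4.50% of all genes were called downregulated and 3.82% upregulated. All 16 were lower in IDPN: 4 in complex I, 6 in complex IV and 6 in complex V. The remaining Controls lay above every IDPN library for 69 of the 90 members, against 21.1% of all genes. Without Control 2 or without IDPN 1 no member was called, and at an unadjusted p under 0.05 there were 4 members downward and 0 upward in each of these fits. The median change was -0.40 without Control 3 and -0.13 without Control 2. No label gives a reason to leave out any of these libraries.

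**Figure D3:**
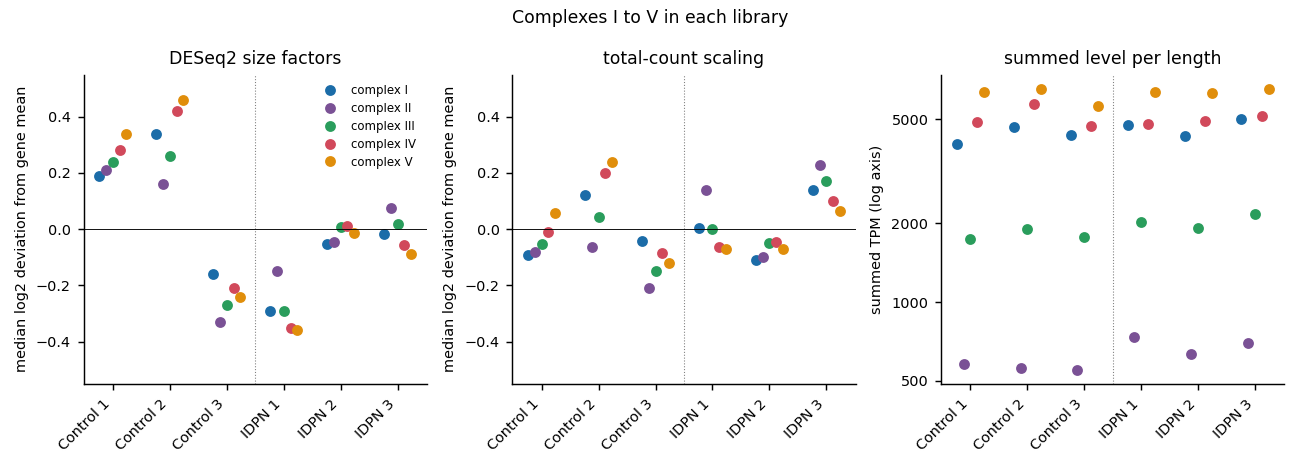
Complexes I to V in each of the 6 libraries (points, coloured by complex; the dotted line divides Control from IDPN). The left and middle panels give the median log2 deviation of a complex's tested genes from their means with DESeq2 size factors, where Control 3 and IDPN 1 are lowest for all 5 complexes, and with total-count scaling, where the groups mix; the right panel gives summed TPM on a log axis, from 551 for complex II to 6554 for complex V.

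Members with short transcripts stood lower than those with long ones. Across the 91 members, transcript length and log2-Fold_Change had a Spearman correlation of 0.41, and across 14587 other protein-coding genes of 0.10. These are descriptions across genes measured in the same 6 libraries. All 3 called members were under 700 nucleotides (419 for Ndufa1, 421 for Atp5e and 682 for Atp5h). The 31 members in this class had a median of -0.30, and the 254 other protein-coding genes of the same lengths had -0.28, of which 7.87% were called downregulated. From 700 to 1000 nucleotides the members had a median of -0.32 and the other genes -0.15. From 1500 to 3000 nucleotides the medians were -0.15 and 0.012. Libraries differed in this respect, and the groups overlapped. Short genes of all kinds, under 700 nucleotides, had median deviations of 0.18, 0.35 and -0.086 for Control 1 to 3, and of -0.30, -0.034 and -0.052 for IDPN 1 to 3.

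A smooth offset for transcript length in each library brought the members nearer to the other genes. With it the median of the members was -0.11 and that of all genes 0.020, a distance of -0.13 in place of -0.27, the correlation with length was -0.14, and 66 of 91 members were below 0. No member was called, beside 3.55% of all genes called downregulated, and at an unadjusted p under 0.05 there were 7 members downward and 1 upward in DESeq2. Ndufa1 had -0.27 (Padj = 0.447), Atp5e -0.32 (Padj = 0.283) and Atp5h -0.38 (Padj = 0.0834) in this fit. The complex medians came to -0.10, -0.040, -0.002, -0.032 and -0.20 for complexes I to V. The part of transcript length in the lower values was not tested beyond this.

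**Figure D4:**
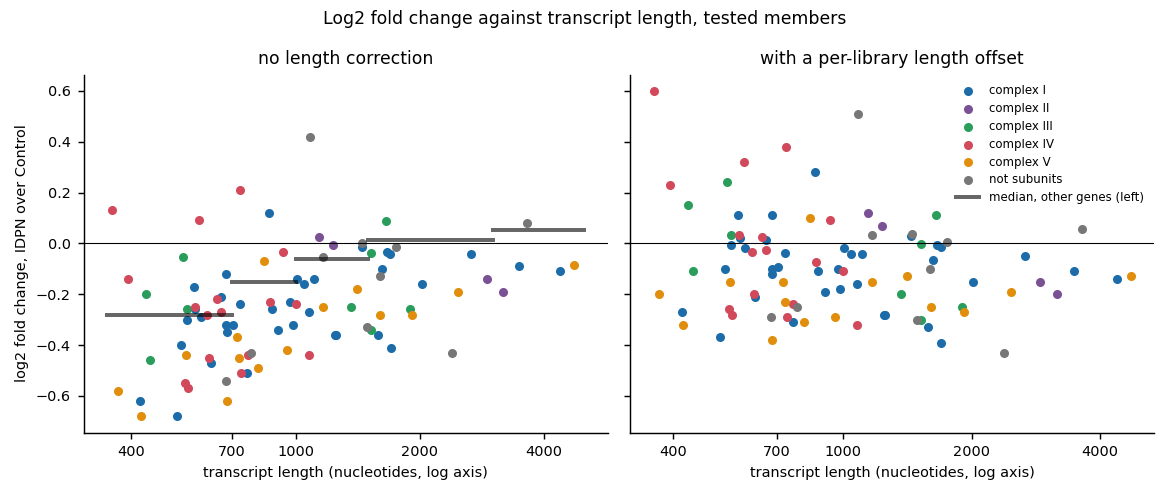
Log2 fold change of IDPN over Control (y axis) against transcript length in nucleotides (x axis, log scale) for the 91 tested members, coloured by complex, without correction (left) and with a length offset per library (right). Bars in the left panel give the median of other protein-coding genes in 5 length classes, from -0.28 under 700 nucleotides to 0.052 at 3000 or more.

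Some subunits of complexes IV and V exist as paralogs with tissue-specific use. Here the general forms made up nearly all of the transcripts of subunits 4, 6a, 6b and 8 and of Ndufa4. In the 7a family the general form Cox7a2 far exceeded the muscle form Cox7a1. Most transcripts of that family came from Cox7a2l, a related supercomplex factor. Cox6a2, the heart and muscle form of subunit 6a, and Cox8c, known from testis, had 0 counts in all 6 libraries, where 3 counts in a library would have been at most 0.189 and 0.281 TPM. Cox8b, the muscle form of subunit 8, had 5, 11 and 6 counts in Control and 12, 5 and 12 in IDPN. The forms used in most tissues, Cox6a1, Cox6b1, Cox7a2 and Ndufa4, had log2-Fold_Changes of -0.25, -0.45, -0.27 and -0.28, none called. Cox7b2 had at most 2 counts in any library and no Padj. Cox7a1, the muscle form of subunit 7a, reached 9.97 to 16.7 TPM against 167 to 208 TPM for Cox7a2. Of the transcripts of the 7a family, Cox7a2 held 33.6% ± 2.57 in the Control and 35.8% ± 1.81 in the IDPN libraries (SD, n = 3 each). The related Cox7a2l held 67.5%, 63.0% and 61.5% in Control and 61.9%, 59.2% and 63.0% in IDPN, with overlap.

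Cox4i2, which replaces Cox4i1 in lung and under low oxygen, held 0.477%, 0.426% and 0.782% of the Cox4 transcripts in Control and 0.726%, 0.818% and 0.935% in IDPN. IDPN 1 lay below Control 3, so the groups overlapped, and its log2-Fold_Change was 0.21 (SE 0.27, DESeq2 Padj = 0.785). Ndufa4l2, a hypoxia-responsive relative of Ndufa4, had 12 to 21 counts per library. Cox6b2, the testis form of subunit 6b, held 1.53% ± 0.811 of the subunit 6b transcripts in Control libraries, against 2.09% ± 0.364 with IDPN (SD, n = 3 per group), and the libraries overlapped. Cox7a2l, a factor that joins complexes III and IV into supercomplexes, had 12573, 12497 and 7674 normalized counts in Control and 7388, 7837 and 8961 in IDPN (log2-Fold_Change -0.44, SE 0.20, DESeq2 Padj = 0.221).

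Subunit c, which forms the rotor ring of complex V, is encoded by 3 genes with different import signals and the same mature protein. Of their transcripts, Atp5g3 took 61.5% ± 3.15 in the Control and 62.3% ± 3.26 in the IDPN libraries (SD, n = 3 each), and Atp5g2 34.8% ± 2.42 and 33.3% ± 2.94. Atp5g1 took 3.75% ± 0.827 and 4.44% ± 0.353. Its share rests on a transcript of 4715 nucleotides. With the shortest principal transcripts, 596 nucleotides for Atp5g1, its share was 19.7% ± 3.36 and 22.9% ± 1.23 (SD, n = 3 each). None of the shares separated the groups beyond the spread between libraries. The log2-Fold_Changes were -0.37 for Atp5g3, -0.45 for Atp5g2 and -0.087 for Atp5g1, none of them called.

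**Figure D5:**
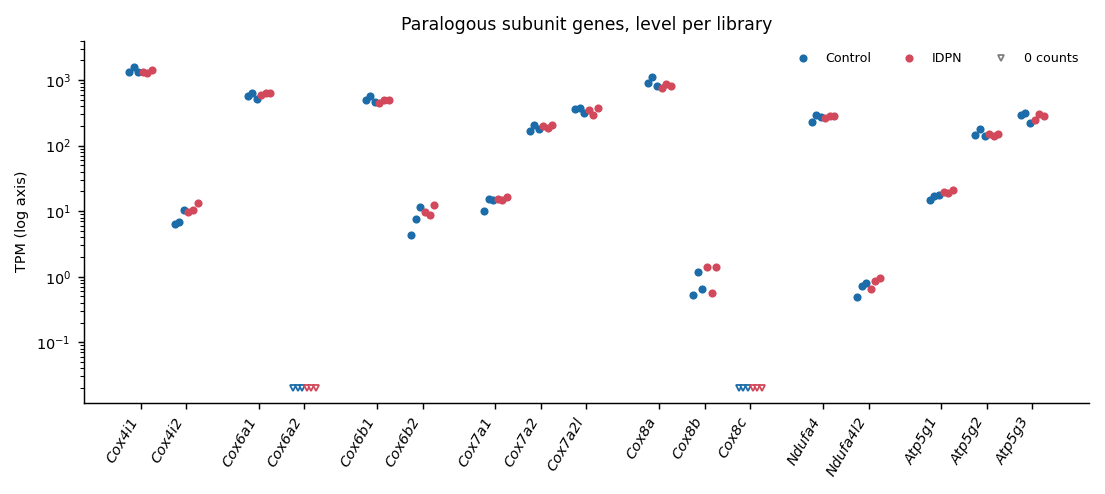
TPM on a log axis for paralogous subunit genes in each Control (blue) and IDPN (red) library. Open triangles mark 0 counts (Cox6a2 and Cox8c in all 6 libraries), and within each family the Control and IDPN points lie close together compared with the distance between family members, apart from subunits 7a and c, where several members are abundant.

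By their medians, the 13 subunits encoded by mitochondrial DNA gave lower values than the nuclear subunits of the same complexes. All 13 were below 0, with a median log2-Fold_Change of -0.73, and 8 were called downregulated by DESeq2. In complex I the 7 mitochondrial subunits had a median of -0.79 and the 36 nuclear subunits -0.26. In complex IV the medians were -0.61 for 3 and -0.25 for 17 genes, and in complex V -0.68 for 2 and -0.37 for 15 genes. Complex III has 1 mitochondrial subunit, mt-Cytb, at -0.42 (DESeq2 Padj = 0.217), beside a median of -0.25 for its 9 nuclear genes. Single genes overlapped, as with the nuclear Uqcr11 of complex III at -0.46. The mitochondrial median stayed at -0.45 with total-count scaling and -0.54 with the length offset. Between -0.94 and -0.59 with a library left out, it was below the nuclear median in each of these fits, though 1 mitochondrial gene was called with total-count scaling and 0 with edgeR (of 357 genes called downregulated in all), while all 13 had an unadjusted p under 0.05 in DESeq2. Their summed TPM was 133277 to 158849 in Control and 108629 to 133893 in IDPN, with IDPN 3 above Control 3. The oligo-dT primer of SMART-seq2 captures polyadenylated copies of these transcripts only.

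Other genes of the pathway were listed by function. The 46 tested assembly factors of the chain, 8 of them members, had 0 calls and a median of -0.083, with 7 downward and 2 upward at an unadjusted p under 0.05 in DESeq2. The 12 electron and inner membrane carriers had 0 calls (0 of 12 at an unadjusted p under 0.05) and a median of -0.11. The 17 genes of the tricarboxylic acid cycle also had 0 calls, 0 at an unadjusted p under 0.05 and a median of -0.079. Of the 17 regulators of mitochondrial biogenesis none was called, and their median was 0.13, with 0 downward and 2 upward at an unadjusted p under 0.05. Among 18 glycolysis genes 1 was called, Tpi1 (-0.59, DESeq2 Padj = 0.0274), with a median of -0.21. The 77 mitochondrial ribosomal proteins had 1 call downward and a median of -0.10, and the 81 tested cytosolic ribosomal proteins 8 calls downward and a median of -0.47. The count for the cytosolic ribosomal proteins was 53 without Control 3, 0 without Control 1, Control 2, IDPN 1 or IDPN 3, and 0 with edgeR (50 had an unadjusted p under 0.05 in DESeq2). Of the 4 listed subunits outside the naming rule 2 were tested, with a median of -0.47 and no call. With total-count scaling the medians of assembly factors, carriers, cycle genes and mitochondrial ribosomal proteins came to 0.17, 0.17, 0.19 and 0.16, all above 0 but below the 0.27 of all genes. Summed TPM of the cycle genes was 1580 to 1620 in Control and 1850 to 2098 in IDPN, higher without overlap. The same held for complex II, one of whose roles is in that cycle, but also for sets outside it. Complex III had 1746, 1907 and 1781 TPM in Control and 2021, 1920 and 2181 in IDPN. The carriers had 2842 to 3157 in Control and 3504 to 3708 in IDPN. Complexes I, IV and V overlapped between groups. TPM is scaled to the same total in every library, and with total-count scaling the median of all genes was itself 0.27. With DESeq2 size factors the medians were below 0 for the cycle genes (-0.079), complex II (-0.071), complex III (-0.25) and the carriers (-0.11). The higher sums are therefore not a rise over the typical gene.

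HC markers moved with the groups in another way. Of 20 HC markers 12 were called downregulated, with a median of -0.73 (6 and -0.47 with total-count scaling) and none at 0, and their summed TPM was 542, 620 and 760 in Control and 517, 413 and 406 in IDPN. By summed TPM, Control 3 was thus the highest library for HC markers and, at 17166 TPM, the lowest for the respiratory chain. By normalized counts the order varied between HC markers. Control 3 was the highest library for Gfi1 (2891) but the lowest Control for Ptprq (20697). With a library left out, 10 to 12 of the HC markers were called, against 0 to 16 members. Erythroid markers were called upregulated for 4 of 5 tested, with summed TPM of 854 to 1906 in Control and 2495 to 3306 in IDPN. Macrophage markers summed to 158 to 207 TPM and 309 to 422 TPM with 1 of 14 called upward, and stromal markers to 442 to 635 TPM and 791 to 1017 TPM with 1 of 10 called upward. Supporting cell markers had 2 of 14 called downward (5505 to 6306 TPM in IDPN against 6632 to 7752 TPM in Control), and neuronal markers 3 of 8 tested (44.8 to 55.1 against 53.1 to 76.4 TPM). Schwann cell markers had 1 of 10 called upward, and melanocyte and endothelial markers 1 of 9 and 1 of 10 downward, although the melanocyte median was 0.54. Markers of dark and transitional cells had 0 of 9 called (2 downward and 1 upward at an unadjusted p under 0.05 in DESeq2). Skeletal muscle markers summed to at most 3.04 TPM in Control and 2.22 TPM in IDPN, with 1 of 5 tested genes called downward and Tnnc2 at 0, and brown fat markers, 1 tested of 5, to at most 18.2 TPM. The part of cell composition in the values of the respiratory chain genes was not tested.

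Promoters of respiratory chain genes are known for binding sites of NRF1, ETS factors such as GABP, ERR, YY1 and NF-Y. RefSeq promoters (GRCm38.p6; 250 bases before to 50 after the start, 1 per gene) were at hand for 77 of the 94 members, 3 of them by a synonym. The NRF1 core CGCANGCG, on either strand, was in 27 of 77 (35.1%), against 8.42% of all 27025 promoters. The ETS core CCGGAAG was in 22.1% against 9.12%, the YY1 core AAGATGGC in 14.3% against 2.88%, the ERR motif AAGGTCA in 10.4% against 4.66%, and the CCAAT box bound by NF-Y in 45.5% against 37.9%. All members are protein-coding. Over the 17492 promoters of protein-coding genes the shares were 11.4% for NRF1, 11.9% for ETS, 3.22% for YY1, 4.08% for ERR and 39.0% for CCAAT. These matches describe letters, not occupied sites. Members with an NRF1 match had a median log2-Fold_Change of -0.25 (27 genes) and those without -0.27 (49 genes). With an ETS match the median was -0.43 (17 genes) and without -0.25 (59 genes), a difference that was not tested.

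The start regions of the complex V genes called in the main DESeq2 fit are shown to place these motifs. No link between a motif and a change in expression was tested. Bases that GENCODE places in an exon of any gene were left out. Atp5h shares its start region with Kctd2 on the opposite strand, and 244 of the 250 bases before the start of Ndufa1 lie in an exon of Rnf113a1, so none are shown for it. The sequences are on the minus strand of GRCm38.p6, written from 5′ to 3′, at chr2:174464106-174464351 for Atp5e (246 bases, ending 4 bases before the RefSeq start) and chr11:115419963-115420127 for Atp5h (165 bases, ending 43 bases before it). Capitals mark the ETS core, read as CTTCCGG, and 2 CCAAT boxes, 1 read as ATTGG, in Atp5e, and the NRF1 core and 2 CCAAT boxes, both read as ATTGG, in Atp5h; the matches do not overlap. The 300-base windows counted above also hold an ETS match for Atp5h and an ERR match for Atp5e, which fall outside the stretches shown. The 300-base window of Ndufa1 holds no match to any of these motifs.
Atp5e: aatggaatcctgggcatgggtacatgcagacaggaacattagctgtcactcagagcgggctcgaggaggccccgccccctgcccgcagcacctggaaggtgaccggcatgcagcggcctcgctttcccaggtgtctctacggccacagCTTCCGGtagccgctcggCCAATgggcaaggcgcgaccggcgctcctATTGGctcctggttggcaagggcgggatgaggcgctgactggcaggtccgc
Atp5h: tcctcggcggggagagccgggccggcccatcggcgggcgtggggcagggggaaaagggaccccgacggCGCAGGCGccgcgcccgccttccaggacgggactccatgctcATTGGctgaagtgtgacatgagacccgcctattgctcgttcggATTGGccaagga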

How the data were processed

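RNA of vestibular epithelium from 3 Control and 3 IDPN mice was sequenced. The deposited values are expected counts in whole numbers, which the authors made with STAR 2.5.3a and RSEM on GRCm38 and GENCODE M15; the submitters' processing notes give RSEM the version 2.3.0. RSEM divides reads that match several genes, so splits between near-identical genes are uncertain. The 7 pseudogenes named after members had at most 20 counts in any library. No column was left unmatched (0 of 6).

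Groups came from the labels. DESeq2 1.42.0 (R 4.3.3) Wald tests took size factors by the median of ratios, without a covariate, with Padj under 0.05 and a fold change over 1.5 as thresholds, over all genes. A low-count member (Cox7b2) has no Padj after independent filtering, and Cox6a2 and Cox8c had no counts. The edgeR 4.0.16 quasi-likelihood test and the other alternatives are described at the end. Fold changes are IDPN over Control, and 95% intervals are 1.96 SE. P-values measure the spread between these animals. The floor of 3 counts covers counting error only, and PCR copies without molecular identifiers are not independent molecules. TPM were computed from the deposited counts and the longest APPRIS principal transcript of GENCODE M21, found for 99.6% of genes, and RSEM's effective lengths were not used here. Deviations per library used log2 of the normalized count plus 0.5. Length, GC and abundance offsets used lowess with a span of 0.3. Figures were drawn with matplotlib 3.10.9. The code was tested on simulated data.

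Named genes were the called members, the 2 most abundant and the 2 lowest-p subunits of each complex, the listed paralogs and all of complex II; other members, such as Ndufa8, Ndufaf2 and Ndufaf6, were named after their values were seen. The members, lists, tests and motifs were chosen with earlier results of these data known, and the lists support nothing by themselves.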

Additional observations from a re-analysis of the deposited data

How the results depend on the processing

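The direction of these results is relative to the typical gene, and 3 libraries a group limit what can be called. The count of downregulated members, 3, and of those past Padj alone, 3, both became 1 with edgeR, 0 with the length offset and 0 with total-count scaling. With a library left out they ranged from 0 to 16 and from 1 to 26, the highest without Control 3. Members lower without overlap, 12, became 6 with total-count scaling and ranged from 12 to 69 with a library left out. Members higher without overlap, 0, became 2 with the abundance offset, 3 with the length offset and 10 with total-count scaling, and ranged from 0 to 3 with a library left out. The share of all genes without overlap is given here only for the main fit and the fit without Control 3, so the other counts have no background. With total-count scaling 12858 of all genes lay above 0 and 3849 below. Total-count scaling moved the medians to 0.021 for all members, 0.007, 0.20 and 0.028 for complexes I to III, and 0.18 for genes that are not subunits, and the length offset moved complex III to -0.002. With a library left out the median of genes that are not subunits ranged from -0.24 to -0.013. The log2 ratios of summed TPM, 0.11, 0.29, 0.17, -0.044 and 0.056 for complexes I to V, became -0.21, -0.11, -0.15, -0.41 and -0.28 with summed normalized counts. The cause of these shifts was not tested. Of 32 named members with a Padj, 11 changed sign with total-count scaling, none of them called. The other alternatives (TMM size factors, a filter on low counts, no independent or Cook's filter, GC offset, abundance offset for the counts lower in IDPN, protein-coding genes alone, without mitochondrial and ribosomal genes, Ndufa4 counted with complex I, and, chosen after seeing the data, the shortest principal transcript) kept these counts within 1.5 times and the medians within the spread between libraries. No paired analysis was possible because the labels give no replicate number that the groups share.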
